A study of Homo sapiens with 9 samples.

Results

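The genes described here, 10 in all, stand downstream of, or hold back, signalling by JAK kinases. They are *CISH*, *SOCS1*, *SOCS2*, *SOCS3*, *PIM1*, *PIM2*, *OSM*, *SH2B3*, *PTPN1* and *PTPN2*, and were chosen by name, as SOCS family genes, PIM kinases, the cytokine OSM, and adaptors or phosphatases that limit JAK signalling, from the 60662 genes measured. Bulk RNA-seq covered SET2, an established megakaryoblastic leukemia line with mutant *JAK2* that arose after a myeloproliferative neoplasm (MPN), left untreated in all groups. The groups were wild-type cells (WT), the KO clone 11H1 and the KO clone 14B5, with 3 libraries each, both clones made by delivering a Cas9 ribonucleoprotein against *DYRK1A*. DYRK1A is a serine, threonine and tyrosine kinase encoded on chromosome 21. Each KO clone was grown from a single sorted cell. For other assays the paper calls the unedited SET2 cells parental in its methods and WT clones in a figure legend. No library here is labelled as an unedited single-cell clone, so an effect of the edit and a trait of the founder cell cannot be told apart. The 3 libraries of a group are not stated to come from separate cultures, so p values measure the spread between these libraries, which may be technical. The comparisons ask how the RNA of each clone differs from WT and whether the clones differ from each other.

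When a cytokine binds its receptor, the receptor-bound JAK kinases are activated and phosphorylate STAT factors, which pair, enter the nucleus and bind DNA. In blood cells STAT5 switches on genes for survival and also genes that shut the pathway down, such as *CISH* and the SOCS genes, so their RNA is widely used as a readout of the pathway. Other brakes act on the proteins directly: SH2B3 (LNK) binds JAK2 and its receptors, and the phosphatases PTPN1 and PTPN2 remove phosphate from JAKs and STATs. A mutant JAK2 signals without cytokine, which is the hallmark of most MPNs.

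The best known STAT5 element in this set lies upstream of *CISH*, and it is shown here with the same stretch of the *SOCS3* and *PIM2* promoters, because these genes were also higher in each clone. Letters run 5′ to 3′ on the strand of the gene, from 250 to 101 bases before a RefSeq start (GRCh38.p14), and capitals mark the STAT motif TTCNNNGAA, which reads the same on both strands.
CISH, chr3:50611875-50612024, minus strand: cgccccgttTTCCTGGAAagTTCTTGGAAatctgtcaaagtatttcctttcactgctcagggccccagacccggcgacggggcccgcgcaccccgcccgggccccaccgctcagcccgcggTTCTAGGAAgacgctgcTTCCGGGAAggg
SOCS3, chr17:78361026-78361175, minus strand: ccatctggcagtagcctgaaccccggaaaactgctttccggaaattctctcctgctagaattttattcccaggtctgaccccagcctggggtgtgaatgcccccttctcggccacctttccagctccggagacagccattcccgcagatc
PIM2, chrX:48919125-48919274, minus strand: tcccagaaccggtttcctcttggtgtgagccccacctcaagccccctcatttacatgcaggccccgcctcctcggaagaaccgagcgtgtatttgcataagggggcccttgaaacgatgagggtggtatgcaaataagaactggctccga

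The *CISH* stretch holds 4 motifs in 2 pairs, none overlapping another. The distal pair is TTCCTGGAA at −241 and TTCTTGGAA at −230, and the proximal pair is TTCTAGGAA at −129 and TTCCGGGAA at −112, counted from the RefSeq start to the first base of each motif. Of 35116 promoters of the same length (250 bases before to 50 after the start), 2689 (7.66%) held at least 1 such motif and 7 (0.0199%) held 4 or more. RefSeq entries matched 8 of the 10 genes, in 10 windows, and the 9 windows other than that of *CISH* held no match. *SOCS2* and *OSM* had no entry. The same half-sites with a 4-base spacer were found in 6.44% of all promoters and in 0 of the 10 windows. *SOCS3* and *SH2B3* have 2 RefSeq starts each. The *SOCS3* stretch shown precedes the start at position 78360925, which lies outside the GENCODE v29 span of the gene given below, and the other start, at 78359667, lies inside that span. Neither *SOCS3* window covers the upstream end of that span, at 78360077. The *PTPN2* window (chr18:12840913-12841212) lies inside the gene, far from its upstream end at 12929643. The GENCODE starts of *SOCS3* and *PTPN2* were therefore not searched. A match describes letters and not binding, and the absence of one says nothing of sites elsewhere.

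The genes lie on 9 chromosomes (GRCh38, GENCODE v29). The SOCS family genes span chr3:50606490-50611831 (*CISH*), chr16:11254405-11256200 (*SOCS1*) and chr17:78356778-78360077 (*SOCS3*) on the minus strand and chr12:93569814-93583487 (*SOCS2*) on the plus strand. The kinase genes span chr6:37170203-37175426 (*PIM1*, plus) and chrX:48913182-48919024 (*PIM2*, minus). *SH2B3* spans chr12:111405948-111451623 (plus), *PTPN1* chr20:50510321-50585241 (plus) and *PTPN2* chr18:12785478-12929643 (minus). Values below are sums over each whole gene, so they do not separate exons or isoforms.

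Levels are given as CPM, expected counts scaled to a common library size by edgeR's TMM method, and changes as log2 fold changes (log2FC ± SE) from edgeR's quasi-likelihood test with Benjamini–Hochberg adjusted p over all genes tested, at a threshold of 0.05. That test returns no SE, so the SE was calculated as the absolute log2FC divided by the square root of the F statistic. Total expected counts ran from 32347779 to 60272245 per library. Mitochondrial RNA made up 3.54% to 6.03% of a WT library, 7.23% to 7.39% of an 11H1 library and 3.30% to 3.92% of a 14B5 library. Megakaryocyte markers, mostly *ITGA2B*, summed to 1500 to 1510 CPM in WT, 1040 to 1090 in 11H1 and 978 to 1020 in 14B5. Of those tested, 9 of 9 were lower in 11H1 and 8 of 9 in 14B5. Their median log2FC was −1.24 in 11H1 and −3.26 in 14B5, against −0.00653 and −0.0137 over all genes tested. *PF4*, a defining platelet gene, was at 22 to 25 counts (0.461 to 0.559 CPM) in WT and at 0 in both clones. Erythroid markers, mostly *HBG2*, summed to 13600 to 15600 CPM in WT, 12900 to 14000 in 11H1 and 15000 to 16500 in 14B5 with none at 0, and of 9 tested 4 were higher and 4 lower in 11H1 and 2 were higher and 1 lower in 14B5. Granulocyte markers summed to 1.60 to 2.14 CPM in WT, 1.0 to 1.14 in 11H1 and 2.21 to 2.44 in 14B5. These sums mix directions, since of 4 tested in 14B5 3 were higher and 1 lower, and of 2 tested in 11H1 1 was lower. Lymphoid markers summed to 39.2 to 43.6 CPM in WT, 30.3 to 30.6 in 11H1 and 29.3 to 32.8 in 14B5. *MS4A1* was at 0 in the clones and in WT libraries 2 and 3, with 6 counts in WT library 1. Of 3 lymphoid markers tested, 1 was higher and 2 lower in 11H1, and 0 were higher and 2 lower in 14B5. Shares of all genes tested, to read such counts against, follow in the next paragraph. Monocyte markers, mostly *LYZ* and with *S100A8* at 0, summed to 195 to 199 in WT, 101 to 109 in 11H1 and 111 to 123 in 14B5. Their part in the results below was not tested, and fewer cells of a type cannot be told apart from less RNA per cell. *DYRK1A* RNA was 197, 196 and 218 CPM in WT, 188, 191 and 192 in 11H1 and 191, 182 and 174 in 14B5, so it was past the threshold only in 14B5 (log2FC −0.17 ± 0.06, adjusted p = 0.0278), and its level does not by itself check the labels. The paper chose KO clones by deep sequencing for out-of-frame indels alone, and checked the loss of DYRK1A by western blot.

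In 11H1 versus WT, 8 of the 10 genes passed the threshold, 5 higher and 3 lower, where 64.6% of the 16675 genes tested passed it (31.8% higher and 32.8% lower). In 14B5 versus WT, 6 passed it, 5 higher and 1 lower, where 53.5% of 16537 genes did (24.9% higher and 28.7% lower). The median log2FC of the 10 genes was 0.0666 in 11H1 and 0.181 in 14B5, against −0.00653 and −0.0137 over all genes tested. All 10 genes passed the filter on low counts in each comparison. With most of the genes tested past the threshold in each clone, the number called among 10 is not a result in itself, and what follows is which genes moved, in which direction and by how much. Both comparisons use the same WT libraries, so they are not independent of each other.

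**Figure D1:**
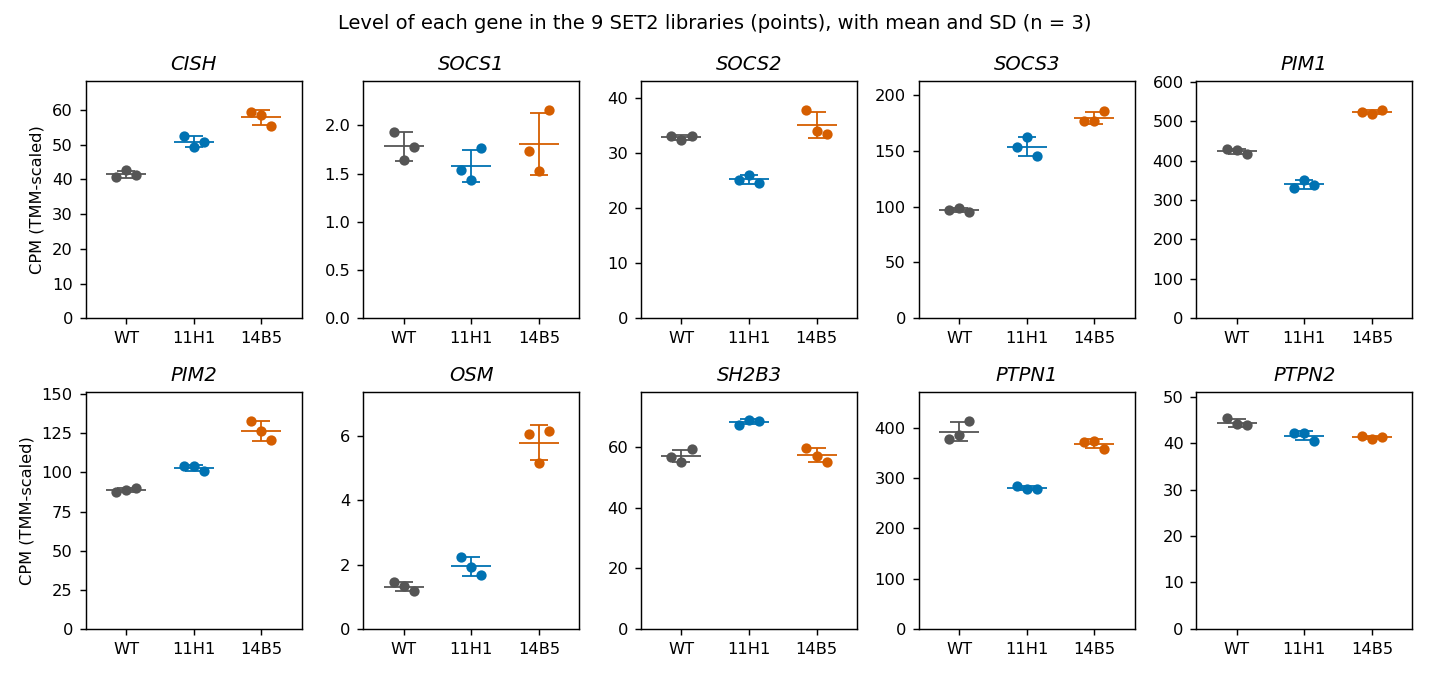
CPM (TMM-scaled, linear axis from 0) of each of the 10 genes in every library of WT, 11H1 and 14B5, with points for libraries and bars for mean and SD (n = 3). *SOCS3* stood at 95.2 to 99.0 CPM in WT and at 146 or more in each KO library, *PIM1* lay below WT in 11H1 and above it in 14B5, and *OSM* was highest in 14B5.

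*OSM*, the gene of oncostatin M, an IL-6 family cytokine that blood cells make in response to JAK2 and STAT5 signalling, had the widest range of the set. Its level was 1.44, 1.32 and 1.17 CPM in WT, 2.24, 1.92 and 1.67 CPM in 11H1, and 6.05, 5.17 and 6.14 CPM in 14B5. No library of one group overlapped another group. The log2FC was 0.59 ± 0.17 in 11H1 (an increase of 50.1%, adjusted p = 0.0110) and 2.12 ± 0.13 in 14B5 (4.34-fold, adjusted p = 5.92e-07). Between the clones it was −1.55 ± 0.13 (11H1 versus 14B5, adjusted p = 1.41e-06), so the rise in 14B5 was the larger by a test of the difference itself. The gene was read by only 48 to 353 expected counts per library, and without 11H1 library 1 the log2FC in 11H1 was 0.45 with an adjusted p of 0.0712.

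*LIF*, which encodes a related IL-6 family cytokine, is the neighbour of *OSM* on chromosome 22 and moved the other way. *OSM* spans chr22:30262829-30266840 and *LIF* chr22:30240447-30246851 (GRCh38, GENCODE v29), both on the minus strand with 15977 bases between them. *LIF* was 4.07, 3.71 and 3.28 CPM in WT, 1.91, 2.10 and 2.22 in 11H1, and 1.06, 1.32 and 1.06 in 14B5. It was read by only 47 to 200 counts per library and overlaps the antisense genes *LIF-AS1* and *AC004264.1*. The log2FC was −0.83 ± 0.14 in 11H1 (adjusted p = 0.000193) and −1.69 ± 0.15 in 14B5 (adjusted p = 7.28e-06). The ratio of *OSM* to *LIF* counts within a library does not depend on scaling between libraries. It was 0.355 ± 0.000469 in WT (SD, n = 3), 0.947 ± 0.212 in 11H1 and 5.13 ± 1.06 in 14B5. Each WT ratio rests on 48 to 71 *OSM* and 135 to 200 *LIF* counts, so the small SD in WT does not measure its counting error. WT thus had more *LIF* than *OSM* counts in each library and 14B5 had more *OSM*, while in 11H1 the ratio was above 1 in library 1 (1.17) and below it in libraries 2 and 3 (0.913 and 0.753). These ratios, and the others given below, were chosen after the values were seen and carry no test. The receptor chains specific to these cytokines were close to 0, with at most 15 counts for *OSMR* and 8 for *LIFR* in any library, and were not tested. *IL6ST* (gp130), the chain shared by the family, was higher, with log2FC of 0.43 ± 0.08 in 11H1 and 0.37 ± 0.09 in 14B5, and *IL6R*, the IL-6 receptor, was lower, with log2FC of −1.52 ± 0.11 and −0.82 ± 0.09.

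*CISH*, the founding member of the SOCS family, blocks STAT5 docking on cytokine receptors. It was 40.7, 42.7 and 41.2 CPM in WT, 52.6, 49.3 and 50.8 in 11H1, and 59.6, 58.7 and 55.4 in 14B5. The 3 groups were stacked without overlap, WT lowest and 14B5 highest. The log2FC was 0.30 ± 0.05 in 11H1 (1.23-fold, adjusted p = 0.0002) and 0.46 ± 0.05 in 14B5 (1.38-fold, adjusted p = 3.15e-05), and −0.18 ± 0.05 between 11H1 and 14B5 (adjusted p = 0.00701). *CISH* overlaps *MAPKAPK3* on the opposite strand, and the strand setting of the counting is not given in the sources used here.

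*SOCS3*, which blocks JAK kinases at gp130 and other receptors, rose in each clone. Its level was 97.1, 99.0 and 95.2 CPM in WT, 153, 163 and 146 in 11H1, and 177, 177 and 185 in 14B5. Again no group overlapped another. The log2FC was 0.67 ± 0.05 in 11H1 (1.59-fold, adjusted p = 3.22e-07) and 0.87 ± 0.04 in 14B5 (1.83-fold, adjusted p = 1.66e-07). The clones differed by −0.22 ± 0.05 (11H1 versus 14B5, adjusted p = 0.00208).

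*SOCS2*, a STAT5 target best known for restraining growth hormone signalling, did not follow *SOCS3*. It was 33.0, 32.3 and 33.1 CPM in WT, 25.1, 26.1 and 24.4 in 11H1, and 37.8, 33.9 and 33.4 in 14B5. All 11H1 libraries lay below WT, with a log2FC of −0.38 ± 0.05 (adjusted p = 4.78e-05), while the 14B5 libraries lay just above all WT libraries with a log2FC of 0.08 ± 0.06 that did not pass the threshold (adjusted p = 0.294). The clones differed from each other by −0.47 ± 0.06 (adjusted p = 2.37e-05). Per library, *SOCS3* had 2.96 ± 0.0972 (SD, n = 3) times as many counts as *SOCS2* in WT, 6.11 ± 0.138 times in 11H1 and 5.14 ± 0.441 times in 14B5. *SOCS2* shares its locus with the antisense gene *SOCS2-AS1*.

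*SOCS1*, a direct inhibitor of JAK kinase activity, was near the bottom of the range at 1.93, 1.64 and 1.77 CPM in WT, 1.54, 1.43 and 1.76 in 11H1 and 1.74, 1.52 and 2.16 in 14B5. The groups overlapped. The log2FC was −0.17 ± 0.16 in 11H1 (adjusted p = 0.370) and 0.00392 ± 0.16 in 14B5 (adjusted p = 0.986). The gene had 47 to 124 counts per library, and neither comparison passed the threshold. *RMI2* overlaps *SOCS1* on the opposite strand.

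*SH2B3* encodes the adaptor LNK, whose loss is found in some MPNs. It was 56.7, 55.2 and 59.4 CPM in WT, 67.4, 69.0 and 68.8 in 11H1, and 59.9, 57.3 and 55.2 in 14B5. It was higher in 11H1 by 0.27 ± 0.05 (an increase of 20.3%, adjusted p = 0.00028), with no overlap with WT, whereas 14B5 overlapped WT at −0.00691 ± 0.05 (adjusted p = 0.919). The clones differed by 0.26 ± 0.05 (11H1 versus 14B5, adjusted p = 0.000362), and *SH2B3* was the one gene of the 10 that passed this test with the higher level in 11H1. Its locus overlaps *ATXN2* on the opposite strand.

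*PTPN1* encodes PTP1B, which dephosphorylates JAK2, and it fell in 11H1. It was 378, 386 and 415 CPM in WT, 285, 279 and 279 in 11H1, and 373, 375 and 358 in 14B5. The 11H1 libraries lay well under all others, and the log2FC was −0.48 ± 0.05 (adjusted p = 3.61e-06). The 14B5 libraries lay just under the lowest WT library, with a log2FC of −0.11 ± 0.05 that did not pass the threshold (adjusted p = 0.0944). The clones differed by −0.39 ± 0.04 (adjusted p = 6.60e-06). The *PTPN1* locus overlaps the antisense gene *AL133230.1* and *RN7SL672P* on the opposite strand and *RF00019* on the same strand.

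*PTPN2* encodes TC-PTP, which dephosphorylates JAK1 and JAK3 and, in the nucleus, STATs. It was 45.3, 44.0 and 43.8 CPM in WT, 42.2, 42.1 and 40.5 in 11H1, and 41.4, 40.9 and 41.4 in 14B5. Every KO library was below every WT library, but the shift was small. The log2FC was −0.09 ± 0.05 in 11H1 (adjusted p = 0.131) and −0.12 ± 0.04 in 14B5 (adjusted p = 0.0413). The 14B5 call was lost in 10 of 15 alternative settings, including each of the 6 that left out a library, with adjusted p up to 0.271. Counts of *PTPN1* were 8.86 ± 0.570 times (SD, n = 3) those of *PTPN2* in WT, 6.75 ± 0.129 times in 11H1 and 8.94 ± 0.264 times in 14B5. The *PTPN2* locus overlaps the pseudogenes *STK25P1* and *EIF4A2P1* on the opposite strand.

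The PIM genes encode serine and threonine kinases that promote survival and growth and are induced by STAT5. *PIM1* moved in opposite directions in the clones. It was 429, 426 and 417 CPM in WT, 330, 352 and 338 in 11H1, and 523, 517 and 527 in 14B5. All 11H1 libraries were below WT and all 14B5 libraries above it, with a log2FC of −0.31 ± 0.04 in 11H1 (adjusted p = 6.65e-05) and 0.28 ± 0.04 in 14B5 (adjusted p = 0.000337). Between the clones the difference was −0.61 ± 0.04 (11H1 versus 14B5, adjusted p = 1.74e-07).

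*PIM2* instead rose in each clone. Its level was 87.5, 88.8 and 90.1 CPM in WT, 104, 104 and 101 in 11H1, and 133, 126 and 121 in 14B5. The groups did not overlap. The log2FC was 0.22 ± 0.04 in 11H1 (1.16-fold, adjusted p = 0.000733) and 0.49 ± 0.05 in 14B5 (1.41-fold, adjusted p = 1.90e-05), and −0.29 ± 0.05 between 11H1 and 14B5 (adjusted p = 0.000189). The ratio of *PIM1* to *PIM2* counts was 4.77 ± 0.136 in WT (SD, n = 3), 3.30 ± 0.115 in 11H1 and 4.13 ± 0.225 in 14B5.

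**Figure D2:**
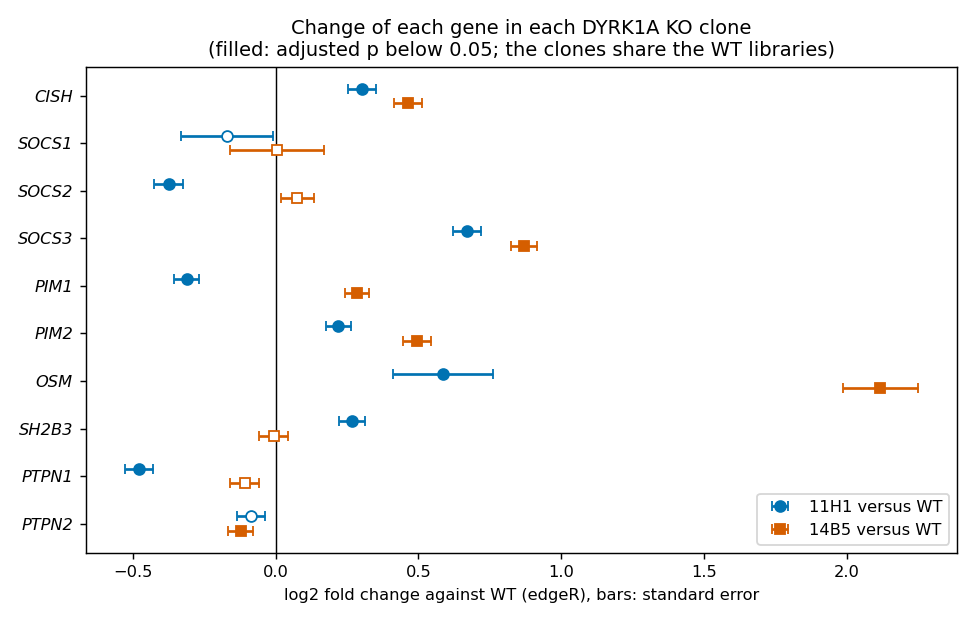
log2FC of each gene against WT in 11H1 (circles) and 14B5 (squares), with bars for the standard error and filled symbols where the adjusted p was below 0.05. *CISH*, *SOCS3*, *PIM2* and *OSM* lay to the right of 0 in each clone, *PIM1* lay on opposite sides, and *SOCS2*, *SH2B3* and *PTPN1* were filled for 11H1 alone.

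**Figure D3:**
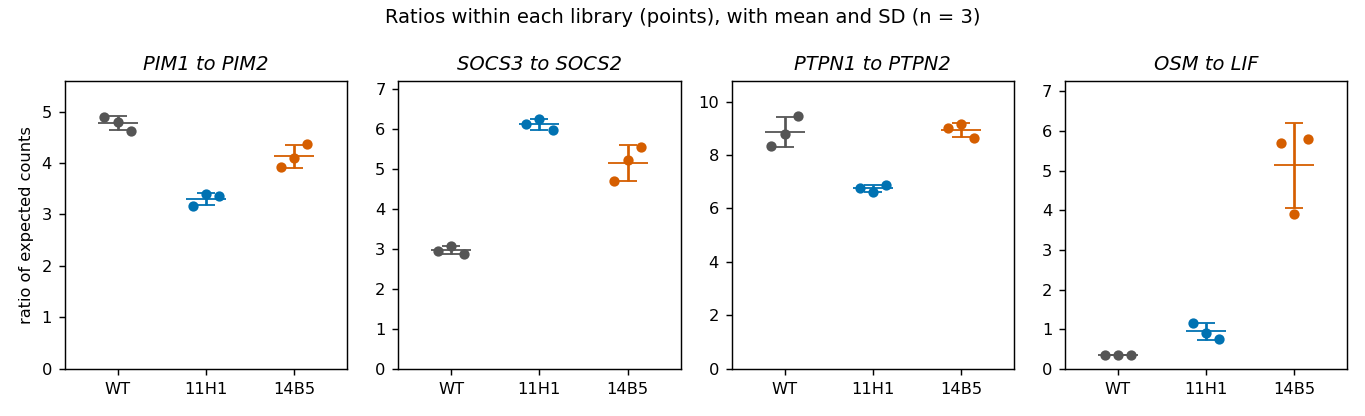
Ratios of expected counts of paired genes within each library (linear axes from 0), with points for libraries and bars for mean and SD (n = 3). The *SOCS3* to *SOCS2* ratio was higher in each clone than in WT, the *PTPN1* to *PTPN2* ratio was low in 11H1, and the *OSM* to *LIF* ratio was highest in 14B5.

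The direct comparison of the clones, which does not use WT, called 8 of the 10 genes, 1 higher and 7 lower in 11H1 than in 14B5, where 63.7% of the 16352 genes tested passed the threshold (31.6% higher and 32.1% lower). The median log2FC of the 10 genes was −0.253 against −0.00441 over all genes tested. The genes not past it were *SOCS1* (−0.19 ± 0.18, adjusted p = 0.376) and *PTPN2* (0.02 ± 0.04, adjusted p = 0.707). For *CISH*, *SOCS3*, *PIM2* and *OSM*, the clone with the larger rise over WT was 14B5 in each case. For *SOCS2*, *SH2B3* and *PTPN1*, which passed the threshold against WT in 11H1 and not in 14B5, this comparison shows that the clones did differ.

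The clones were also pooled as KO (n = 6) against WT (n = 3), although libraries of a clone are not independent replicates of the edit. In this fit 4 of the 10 genes passed the threshold, 4 higher and 0 lower, where 32.0% of the 17080 genes tested did (14.3% higher and 17.7% lower). These were *SOCS3*, *CISH*, *PIM2* and *OSM*, with log2FC of 0.78 ± 0.08, 0.39 ± 0.07, 0.37 ± 0.10 and 1.57 ± 0.48. The median log2FC of the 10 genes was 0.0823, and 0.0219 over all genes tested. *PIM1* was at 0.02 ± 0.18 (adjusted p = 0.931), a mean over clones that moved in opposite directions. The calls of *OSM* (adjusted p = 0.0321) and *PIM2* (adjusted p = 0.0156) were lost when any 1 of the WT libraries was left out, which left 2 genes past the threshold, *CISH* and *SOCS3*. *OSM* was also lost without 14B5 library 1 or 2. *OSM* was lost as well with limma-voom on unrounded values (adjusted p = 0.0740) and with the replicate number as a block (adjusted p = 0.0762), while its log2FC stayed between 1.36 and 1.71 in all 18 alternatives.

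A count of non-overlapping libraries gave a slightly different list. For 6 of the 10 genes no KO library overlapped a WT library, as did 36.6% of the 17080 genes. *CISH*, *SOCS3*, *PIM2* and *OSM* were higher in every KO library and *PTPN1* and *PTPN2* lower. The 2-sided exact permutation test of the mean CPM over the 84 ways to choose 3 of 9 libraries gave p = 0.0119, the smallest it can give, for *CISH*, *SOCS3* and *PTPN2*. The same exact test gave p = 0.0238 for *PIM2* and *PTPN1* and 0.0357 for *OSM*. The exact p was 0.179 for *SH2B3*, 0.440 for *SOCS2*, 0.619 for *SOCS1* and 0.750 for *PIM1*. These p values are not adjusted. The exact test treats the 9 libraries as exchangeable, although libraries of a clone are not independent replicates of the edit. For *PTPN1* and *PTPN2* the edgeR test of KO versus WT did not pass the threshold (log2FC −0.28 ± 0.12 and −0.10 ± 0.05, adjusted p = 0.105 and 0.132).

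Per kilobase of merged exon, which allows levels of different genes to be compared, the 10 genes spanned a wide range. *PIM1* (142 CPM per kilobase in WT) and *PTPN1* (97.3) were highest, followed by *SOCS3* (35.5), *PIM2* (32.2), *SH2B3* (10.05), *CISH* (8.12), *PTPN2* (5.09) and *SOCS2* (4.84), with *SOCS1* (0.991) and *OSM* (0.620) lowest. In WT no neighbours in this order had overlapping libraries. In 11H1 *OSM* (0.919, range 0.791 to 1.06) and *SOCS1* (0.879, range 0.797 to 0.982) overlapped, and in 14B5 *OSM* (2.74) lay above *SOCS1* (1.01). *CISH* (11.3) also lay above *SH2B3* (10.1) in 14B5, and *SOCS2* (5.17) above *PTPN2* (4.73). Lengths were those of all annotated exons, so a gene whose long exons are little used is understated on this scale.

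**Figure D4:**
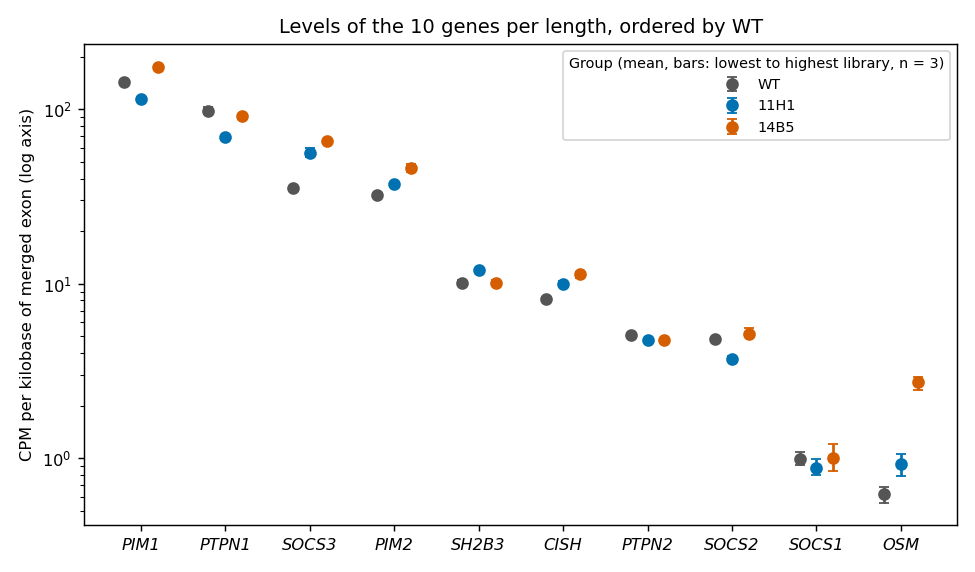
Mean CPM per kilobase of merged exon (log axis) of the 10 genes in WT, 11H1 and 14B5, ordered by WT, with bars from the lowest to the highest library (n = 3). *PIM1* was highest in each group, and *OSM* rose from 0.620 in WT to 2.74 in 14B5.

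Other genes of the pathway were counted from lists written from general knowledge of their roles. The shares of all genes tested to read them against are 31.8% higher and 32.8% lower in 11H1 (64.6% in all), and 24.9% higher and 28.7% lower in 14B5 (53.5% in all). Among 14 other brakes, 5 were higher and 3 lower in 11H1 and 3 were higher and 4 lower in 14B5, which is near those totals and not a result about the list. *PTPN6* encodes SHP-1, a phosphatase of cytokine receptors, and was higher by 0.33 ± 0.05 in 11H1 and 0.62 ± 0.05 in 14B5. *PTPRJ* (CD148), a receptor phosphatase found on platelets and other blood cells, was lower, at −2.02 ± 0.12 and −1.37 ± 0.10, as was *UBASH3B*, a tyrosine phosphatase also called STS-1, at −0.60 ± 0.05 and −0.71 ± 0.05. Of the remaining SOCS genes, *SOCS4* (0.47 ± 0.05) and *SOCS7* (0.24 ± 0.07) passed the threshold in 11H1, and *SOCS5* (0.29 ± 0.06) and *SOCS6* (0.29 ± 0.09) in 14B5, all higher than WT.

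Among 15 other genes listed as STAT5 targets, 4 were higher and 10 lower in 11H1, and 3 were higher and 10 lower in 14B5. Of all genes tested, 31.8% were higher and 32.8% lower in 11H1, and 24.9% and 28.7% in 14B5. The median log2FC of the list was −0.266 and −0.331, against −0.00653 and −0.0137 over all genes tested, and the list was not tested as a set. It includes genes with other regulators, such as ERK for *DUSP6*, and sets no expected direction for any gene. Its counts are therefore not a measure of STAT5 activity. *CDKN1A*, which encodes the cell cycle inhibitor p21, was higher by 2.10 ± 0.07 and 1.64 ± 0.07, and *MCL1*, a survival factor of the BCL2 family, by 0.44 ± 0.04 and 0.54 ± 0.06. *DUSP6*, a phosphatase of ERK and a known target of ERK signalling, was lower, at −1.38 ± 0.17 and −3.12 ± 0.28. Its counts were low, at 93 to 115 per library in WT, 30 to 42 in 11H1 and 9 to 20 in 14B5. *GFI1*, a transcriptional repressor, was also lower, at −1.76 ± 0.11 and −1.99 ± 0.12. Whether this list differed from *CISH*, *SOCS3*, *PIM2* and *OSM*, which were higher in each clone, was not tested.

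Among 11 JAK kinases and STAT factors, 4 were higher and 5 lower in 11H1, and 0 were higher and 4 lower in 14B5, where 64.6% and 53.5% of all genes tested passed the threshold. *JAK2* RNA was lower, with log2FC of −0.61 ± 0.07 in 11H1 and −0.31 ± 0.07 in 14B5, as was *STAT6*, at −0.31 ± 0.04 and −0.28 ± 0.04. *STAT5A*, named here as the factor itself, had a log2FC of −0.19 ± 0.04 in 11H1 (adjusted p = 0.00216) and −0.11 ± 0.05 in 14B5 (adjusted p = 0.0661), and *STAT5B* one of −0.15 ± 0.04 (adjusted p = 0.0114) and 0.11 ± 0.05 (adjusted p = 0.0885). Of 8 receptors that signal through JAK2, 7 were tested, of which 1 was higher and 5 lower in 11H1 and 1 was higher and 6 lower in 14B5, where 32.8% and 28.7% of all genes tested were lower. *EPOR*, the erythropoietin receptor, was the higher one, by 1.05 ± 0.06 and 0.93 ± 0.07. *IL5RA* (−1.63 ± 0.15 and −1.46 ± 0.13) and *CSF3R* (−0.70 ± 0.19 and −1.30 ± 0.14), receptors of eosinophil and granulocyte cytokines, were lowest by the mean of the clones. Of 10 relatives and receptors of OSM, 5 were tested, of which 1 was higher and 2 lower in 11H1 and 1 was higher and 3 lower in 14B5, too few to set against the 64.6% and 53.5% of all genes.

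**Figure D5:**
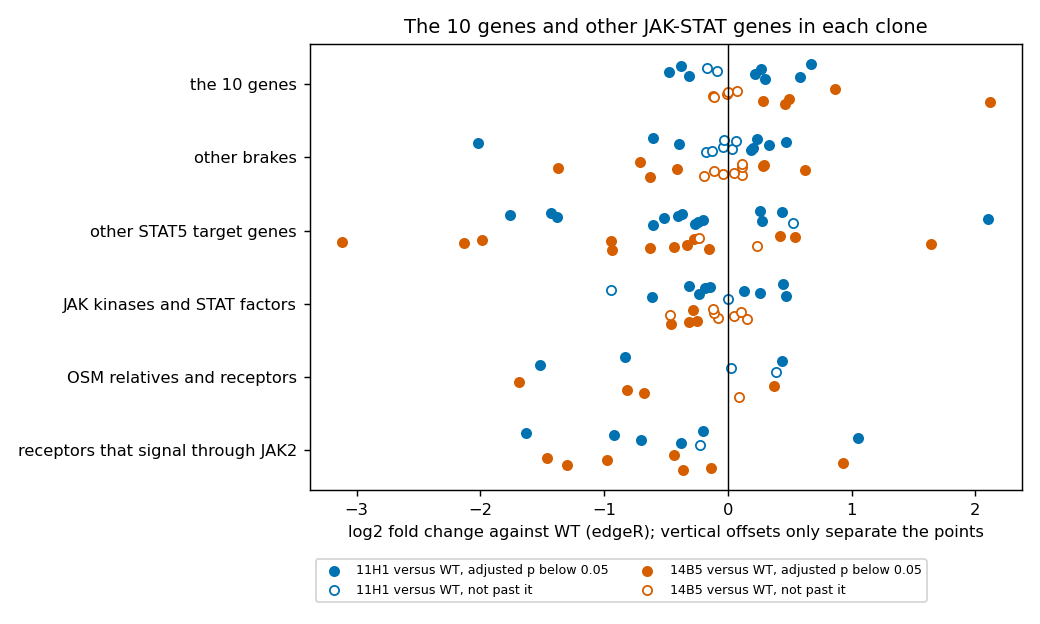
log2FC against WT in 11H1 and 14B5 of the 10 genes and of the tested genes of 5 further lists, with filled points where the adjusted p was below 0.05. The 15 genes listed as other STAT5 targets, some with other regulators, lay mostly left of 0 in both clones, with *CDKN1A* far to the right at 2.10 and 1.64.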

How the data were processed

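Bulk RNA-seq libraries of SET2 WT, 11H1 and 14B5 cells (3 each) were used. Expected counts from RSEM, as the authors deposited them for 60662 genes, are estimates of reads per gene and were not normalized for depth or length. Another 92 spike-in entries were at 0 and left out. The submitters' processing notes name STAR 2.7.9a, Picard, RSEM and GRCh38. The annotation release and strand setting are not given in the sources used here. The paper describes stranded mRNA libraries and the labels another kit. The paper counts 5 KO libraries and does not name the sixth, so every one of the 6 deposited entered.

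Expected counts were rounded and tested with edgeR 4.0.16 in R 4.3.3 (TMM, filterByExpr for the groups compared, quasi-likelihood F test, Benjamini–Hochberg over all genes tested, threshold 0.05) for 11H1 versus WT, 14B5 versus WT, KO versus WT and 11H1 versus 14B5. RSEM divides reads that match several genes, so 5.73% to 6.64% of values were not whole. CPM used TMM-scaled library sizes over the 17080 genes kept. A gene at 0 could have been present at 3 counts (0.0502 to 0.0913 CPM, depending on the library), which covers counting error only. Single genes were compared in KO versus WT by an exact permutation test (2-sided), whose smallest possible p is 0.0119 (0.1 for 3 libraries against 3). Gene positions, overlaps and exon lengths came from GENCODE v29, and promoters from RefSeq (GRCh38.p14).

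All 10 genes and *DYRK1A* are named. From each pathway list, up to 2 of the highest and 2 of the lowest genes past the threshold in the same direction in both clones are named, by mean log2FC. *STAT5A*, *STAT5B*, *ITGA2B*, *PF4*, *LYZ*, *S100A8*, *HBG2*, *MS4A1*, *OSMR*, *LIFR*, *SOCS4*, *SOCS5*, *SOCS6* and *SOCS7* were named outside this rule after their values were seen. The genes, lists and tests were chosen with earlier results of these data known. *CSF2RA* and *IL3RA* counts are split between chromosomes X and Y, and the X entries were used. Alternatives were DESeq2 1.42.0 size factors or Wald test, limma-voom (limma 3.58.1) on unrounded values, other filters, library sizes without mitochondrial genes, protein-coding genes only, a replicate block, a fit of 3 groups and each library left out. The steps were tested on simulated data.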

Additional observations from a re-analysis of the deposited data

Results flagged for a closer look

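A direct test of 11H1 against 14B5, which asks whether the clones' differences from WT differ from each other, passed the threshold for 8 of the 10 genes (edgeR, adjusted p below 0.05), where 63.7% of the 16352 genes tested passed it. The log2FC of 11H1 versus 14B5 was −0.176 for *CISH*, −0.216 for *SOCS3*, −0.291 for *PIM2* and −1.55 for *OSM*, each higher than WT in both clones and highest in 14B5. It was −0.613 for *PIM1*, which was below WT in 11H1 and above WT in 14B5. For *SOCS2* (−0.467) and *PTPN1* (−0.386) 11H1 was the lower clone, and for *SH2B3* (0.258) the higher one. Since each clone came from a single cell, a difference between clones and a difference between the edits they carry cannot be told apart. A check that pooled the 6 KO libraries flagged none as far from the others for any of the 10 genes. It spans the gap between the clones and did not include WT. It therefore cannot show that no library stood apart within a group.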

How the results depend on the processing

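Of the log2FC of the 10 genes under all alternatives, 584 kept their direction and side of the threshold, 21 lost a call, 6 gained one and 19 changed sign, none of the last being past the threshold in the reported fit. In KO versus WT a fit of 3 groups, which takes the difference between the clones out of the spread, called 10247 genes in place of 5471, 8 of the 10 genes in place of 4, and 42 pathway genes in place of 25. With 1 library left out, KO versus WT called 2 to 4 of the 10 genes and 3677 to 5530 genes, 11H1 versus WT 7 to 8 of the 10 and 14B5 versus WT 5. *SOCS1* in 14B5 changed sign under limma-voom (−0.00996), at least 10 counts (−0.0150), protein-coding genes only (−0.0116) and the replicate block (−0.00459), and ran from −0.145 to 0.134 with 1 library left out. *SH2B3* in 14B5 changed sign under DESeq2 size factors (0.00573), the Wald test (0.00569), no filter (0.0297) and the fit of 3 groups (0.00908), and ran from −0.0290 to 0.0368. *PIM1* in KO versus WT did so under limma-voom (−0.0126) and the fit of 3 groups (−0.00865), and ran from −0.0404 to 0.0915. *PTPN2* in 11H1 versus 14B5 did so with no filter (−0.00361). The motif with a 4-base spacer was found 0 times in the *CISH* window. The cause of these shifts was not tested. With the replicate block, 10710, 7529, 3937 and 10097 genes were called in 11H1, 14B5, KO and 11H1 versus 14B5, with 8, 5, 3 and 8 of the 10 genes, but same-numbered libraries did not deviate together (correlations −0.145 to 0.0581), so the numbers do not pair the libraries. The lowest counts were those of *SOCS1* (47 to 124 per library) and *OSM* (48 to 353), and the part of depth in their results was not tested.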
